A study of Homo sapiens with 4 samples.

Results

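The genes described here encode enzymes that build hyaluronan and the sulfated chains of proteoglycans, some proteoglycan core proteins of the cell surface, and genes of hyaluronan degradation. They were taken by symbol, and all 39 symbols were found among the 20263 rows of the deposited count table. The members are 2 hyaluronan synthases, 6 enzymes of the linker between core protein and chain, 10 heparan sulfate enzymes and 11 chondroitin and dermatan sulfate enzymes. The others are 2 sugar nucleotide enzymes, 5 core proteins and 3 genes of hyaluronan degradation. The set was chosen with the difference between HJJ_3_5 and DMSO already known, so fold changes and calls of members are a description and not a test of them.

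The RNA came from HCT116, an established human colorectal carcinoma line that grows as an epithelial sheet. Cells were treated for 24 h with HJJ_3_5, a piperine derivative according to the series title, and the control libraries are labelled DMSO. Each group held 2 libraries, numbered 1 and 2, and both groups were the same line in the same serum-containing medium, with no genetic change named. The labels name no dose of HJJ_3_5. They do not say whether the 2 libraries of a group are separate cultures, and p-values then measure only the spread between these libraries, which may be technical.

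Hyaluronan is a long unsulfated chain that HAS enzymes extrude from the plasma membrane, built from UDP-glucuronic acid and UDP-N-acetylglucosamine. Heparan and chondroitin sulfate are built in the Golgi on a short linker that starts with xylose on a serine of a core protein, continues with a pair of galactoses and ends with glucuronic acid. Dedicated polymerases then extend the chain, and epimerases and sulfotransferases write the pattern of sulfates that growth factors, chemokines and matrix proteins bind. In epithelia the syndecans and glypicans carry heparan sulfate at the cell surface, and hyaluronan is held there by receptors such as CD44.

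The libraries held 29211120 to 36455176 counts, and in all 4 the summed level of 8 epithelial markers (KRT8, KRT18, KRT19, EPCAM, CDH1 and 3 claudins) was 4476 to 6041 CPM, each count divided by its library size after TMM correction (trimmed mean of M-values). Of these, KRT18 was called higher (0.83 ± 0.12 on the log2 scale), and CLDN4 stood at 474 and 25.9 CPM in the DMSO libraries and 99.7 and 31.7 CPM with HJJ_3_5. The stromal proteoglycan genes LUM and DCN, part of 6 fibroblast markers, and PTPRC and MS4A1, part of 5 leukocyte markers, had 0 counts in every library. The 6 fibroblast markers summed to 65.2 to 67.2 CPM with DMSO and 35.3 to 40.7 CPM with HJJ_3_5, nearly all of it COL1A1, which was itself called lower (-0.82 ± 0.13 on the log2 scale). The 5 leukocyte markers summed to 37.0 to 42.9 CPM with DMSO and 20.1 to 27.6 CPM with HJJ_3_5, nearly all of it CD68, and the 4 endothelial markers to 1.56 to 1.66 CPM and 1.91 to 2.58 CPM. The part of these in the results below was not tested. In bulk RNA, fewer cells expressing a gene and less RNA per cell cannot be told apart.

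Of the 39 members, 38 passed the filter on low counts. Among these, 6 were called higher in the HJJ_3_5 libraries and 2 lower, a call being a Benjamini-Hochberg adjusted p below 0.05 in edgeR's quasi-likelihood test across all genes. That is 21.1% of the tested members, where 17.4% of all 14180 tested genes were called. In the higher direction the shares were 15.8% of members and 9.17% of all genes, and in the lower direction 5.26% and 8.27%. The median log2 fold change was 0.058 over the members and 0.0013 over all tested genes. Of the members' log2 fold changes, 20 were positive and 18 negative. Both HJJ_3_5 libraries lay above both DMSO libraries for 15 members and below them for 10, so that the groups did not overlap for 65.8% of members, where the share over all tested genes was 69.0%.

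**Figure D1:**
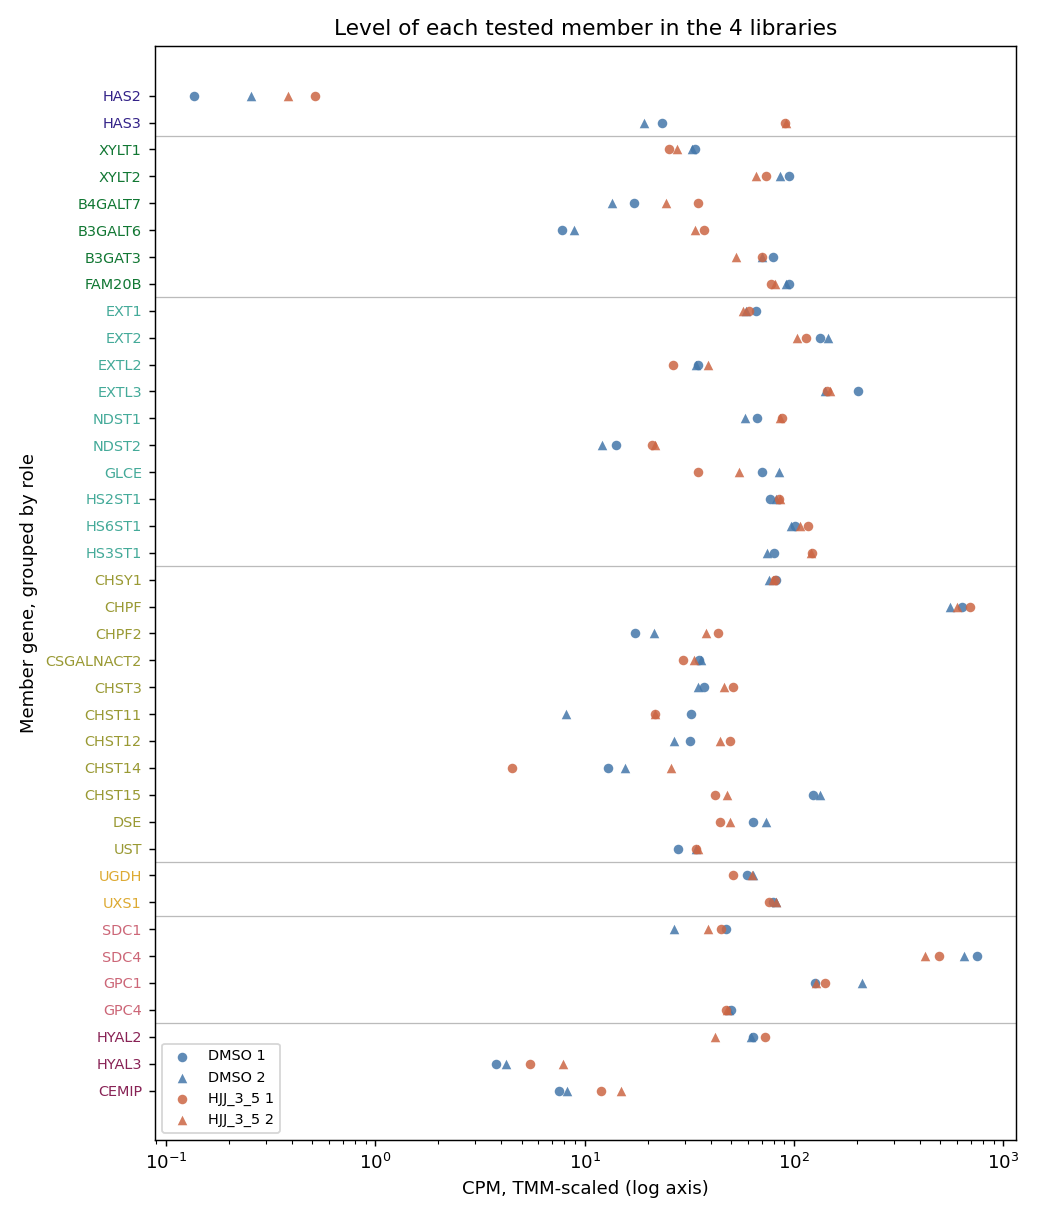
Level of each of the 38 tested members in CPM on a log axis, by library (blue: DMSO, orange: HJJ_3_5, circles: library 1, triangles: library 2), with gene names grouped and coloured by role. HAS3 and B3GALT6 show the widest gap between the groups, CHST15 the widest in the other direction, and CHST11 and CHST14 show libraries of the same group far apart.

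The hyaluronan synthase HAS3 rose most of all members. Its level was 23.4 and 19.2 CPM in the DMSO libraries and 90.2 and 91.9 CPM in the HJJ_3_5 libraries. Both HJJ_3_5 libraries were far above both DMSO libraries and close to each other. The group means were 21.3 ± 2.9 and 91.1 ± 1.2 CPM (SD, n = 2), and the log2 fold change was 2.10 ± 0.14 (standard error), a 4.28-fold difference. HAS3 lies on chromosome 16, 69105564 to 69118719 (GENCODE 29, GRCh38), and shares 365 of its 5289 exon bases with CHTF8 on the other strand. CHTF8 stood at 26.7 and 29.2 CPM with DMSO and 35.5 and 30.1 CPM with HJJ_3_5 and was not called. The synthase HAS2, which makes hyaluronan of high molecular mass, had 4 and 7 counts in the DMSO libraries and 16 and 15 counts in the HJJ_3_5 libraries. These levels, 0.136 and 0.253 against 0.517 and 0.383 CPM, did not overlap but were close to the level of a few reads, and HAS2 was not called (1.19 ± 0.52). The remaining synthase, HAS1, is no member and had 0 counts in 3 libraries and 2 counts in HJJ_3_5 library 1. Per kilobase of the longest coding transcript, HAS3 stood at 5.04 CPM with DMSO and 21.6 CPM with HJJ_3_5, and HAS2 at 0.0464 and 0.107 CPM.

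The galactosyltransferase B3GALT6, which adds the second galactose of the linker that heparan and chondroitin sulfate chains share, rose by nearly the same amount. It stood at 7.77 and 8.94 CPM with DMSO and 37.3 and 33.7 CPM with HJJ_3_5. The groups were far apart, at 8.36 ± 0.83 and 35.5 ± 2.6 CPM (SD, n = 2), with a log2 fold change of 2.09 ± 0.15. B3GALT6 lies on chromosome 1, 1232226 to 1235041, and shares no exon bases with another protein-coding gene. No other member had a log2 fold change as large as those of HAS3 and B3GALT6, in either direction.

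The promoter windows of HAS3 and B3GALT6, the 2 members with the largest increases, and of CHST15, the member with the largest decrease, are shown because their letters can be compared with all promoters. Each window runs from 250 bases before to 50 bases after a RefSeq transcript start (GRCh38.p14), 5′ to 3′ on the strand of the gene. The start used for HAS3 lies inside the gene as GENCODE 29 gives it. Positions are chr16:69107290-69107589 on the plus strand, chr1:1231987-1232286 on the plus strand and chr10:124093549-124093848 on the minus strand. Capitals mark ACGTG on either strand, a form of the core of the hypoxia response element. Other forms of that core were not searched. Where ACGTG overlaps its own reverse complement, the capitals spell CACGTG, the E-box.
HAS3: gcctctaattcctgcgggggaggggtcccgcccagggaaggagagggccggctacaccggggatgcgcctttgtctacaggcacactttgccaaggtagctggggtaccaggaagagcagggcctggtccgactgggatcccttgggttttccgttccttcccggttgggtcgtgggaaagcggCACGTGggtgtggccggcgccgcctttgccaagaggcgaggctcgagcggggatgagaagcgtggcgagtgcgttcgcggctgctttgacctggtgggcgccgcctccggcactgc
B3GALT6: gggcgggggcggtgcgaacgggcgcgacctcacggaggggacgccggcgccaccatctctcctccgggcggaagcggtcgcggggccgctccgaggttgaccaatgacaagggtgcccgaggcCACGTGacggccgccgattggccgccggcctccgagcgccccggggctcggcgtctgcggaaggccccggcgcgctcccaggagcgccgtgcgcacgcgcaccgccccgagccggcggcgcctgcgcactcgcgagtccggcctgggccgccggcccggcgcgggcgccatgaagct
CHST15: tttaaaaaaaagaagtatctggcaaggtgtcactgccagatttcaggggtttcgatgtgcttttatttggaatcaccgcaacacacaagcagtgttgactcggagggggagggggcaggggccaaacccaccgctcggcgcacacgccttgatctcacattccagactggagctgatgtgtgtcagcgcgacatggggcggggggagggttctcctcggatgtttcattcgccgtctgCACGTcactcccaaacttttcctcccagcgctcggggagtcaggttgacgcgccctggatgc
The E-box starts 66 bases before the transcript start of HAS3 and 127 bases before that of B3GALT6, and the window of CHST15 holds ACGTG but no CACGTG.

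A promoter window was found for 35 of the 39 members. CACGTG stood in a window of 4 of these 35 (B3GALT6, CHSY1, EXTL2 and HAS3), which is 11.4%, and in a window of 8.77% of all 27305 genes with a RefSeq promoter window. CHSY1 and EXTL2 hold the same letters and were not called, at 0.02 ± 0.10 and -0.06 ± 0.21 on the log2 scale. ACGTG, which includes every CACGTG, was in 9 of 35 members (25.7%) and 24.9% of genes. The GC box GGGCGG was in 34 of 35 members, against 48.3% of all genes, and the members' 48 windows had a median GC content of 70.2% against 58.7% over all 35116 windows. CCAAT was in 7 of 35 members (20% against 39.7% of genes), the CRE palindrome TGACGTCA in 2 (5.71% against 2.25%), and TGATGCAA, a form of the amino acid response element, in 0 (against 1.08%). All motifs were searched on both strands. The 27305 genes were not limited to genes of the count table or to genes expressed in these libraries. Whether the GC box or the GC content is particular to the members was not tested. A match describes letters in these windows and not a bound site.

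**Figure D2:**
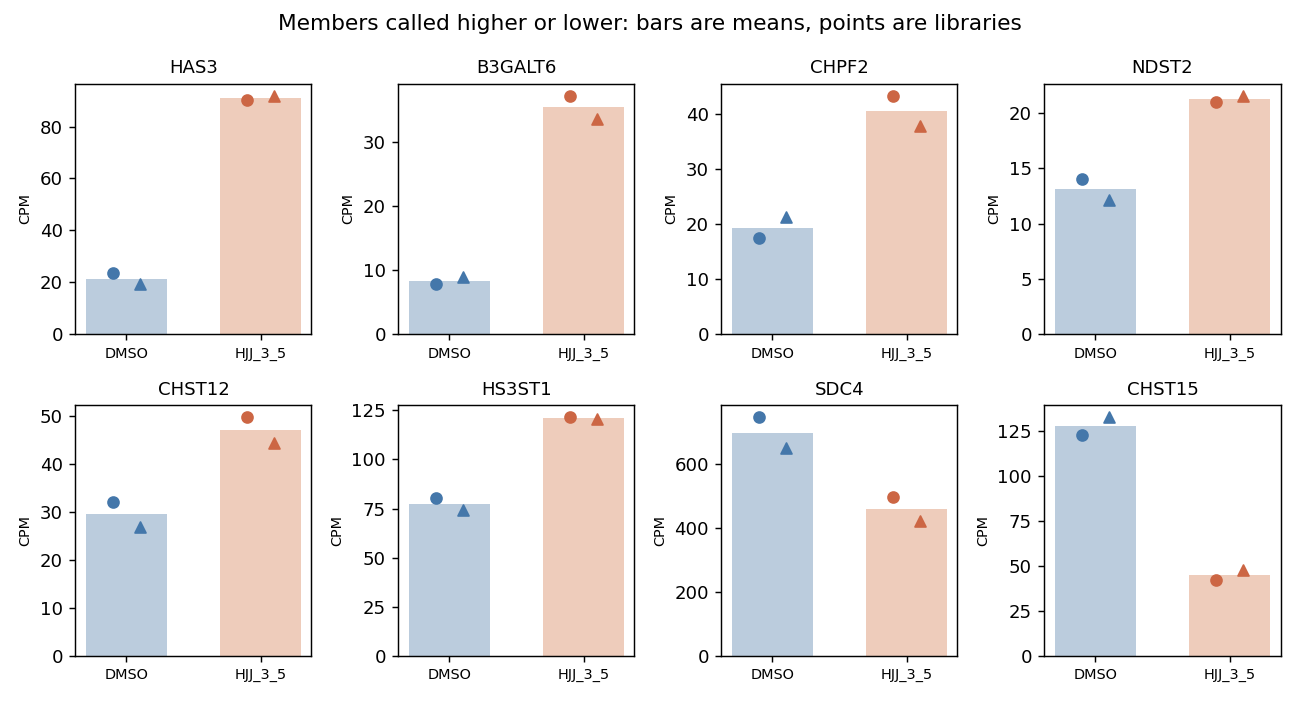
Level in CPM of the 8 members called higher or lower, with bars for the group means and points for single libraries (circles: library 1, triangles: library 2). No panel shows overlapping groups, and the HJJ_3_5 libraries are the higher ones for 6 genes and the lower ones for SDC4 and CHST15.

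None of the other 5 linker enzymes was called. B4GALT7, which adds the first galactose, stood at 17.2 and 13.5 CPM with DMSO and 34.8 and 24.5 CPM with HJJ_3_5, higher in both HJJ_3_5 libraries, with a log2 fold change of 0.95 ± 0.23. The xylosyltransferases that start the linker had lower levels in both HJJ_3_5 libraries. XYLT1 had a log2 fold change of -0.33 ± 0.12, which was -0.03 with a trend in GC content and length removed. XYLT2 had -0.38 ± 0.12, and -0.61 with that trend removed. B3GAT3, which closes the linker with glucuronic acid, overlapped between the groups (-0.28 ± 0.18). FAM20B, the kinase that phosphorylates the linker xylose, stood at 94.3 and 91.6 CPM with DMSO and 77.7 and 81.5 CPM with HJJ_3_5 (-0.22 ± 0.10). Set per kilobase of transcript, the order of the mean levels with DMSO was B3GALT6 at 2.97 CPM, XYLT1 at 3.35, B4GALT7 at 8.77, FAM20B at 15.5, XYLT2 at 25.8 and B3GAT3 at 36.3. With HJJ_3_5 it was XYLT1 at 2.67 CPM per kilobase, B3GALT6 at 12.6, FAM20B at 13.3, B4GALT7 at 17.0, XYLT2 at 19.9 and B3GAT3 at 29.9. In the HJJ_3_5 libraries the values of B3GALT6 and FAM20B overlapped, as did those of B4GALT7 and XYLT2.

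**Figure D3:**
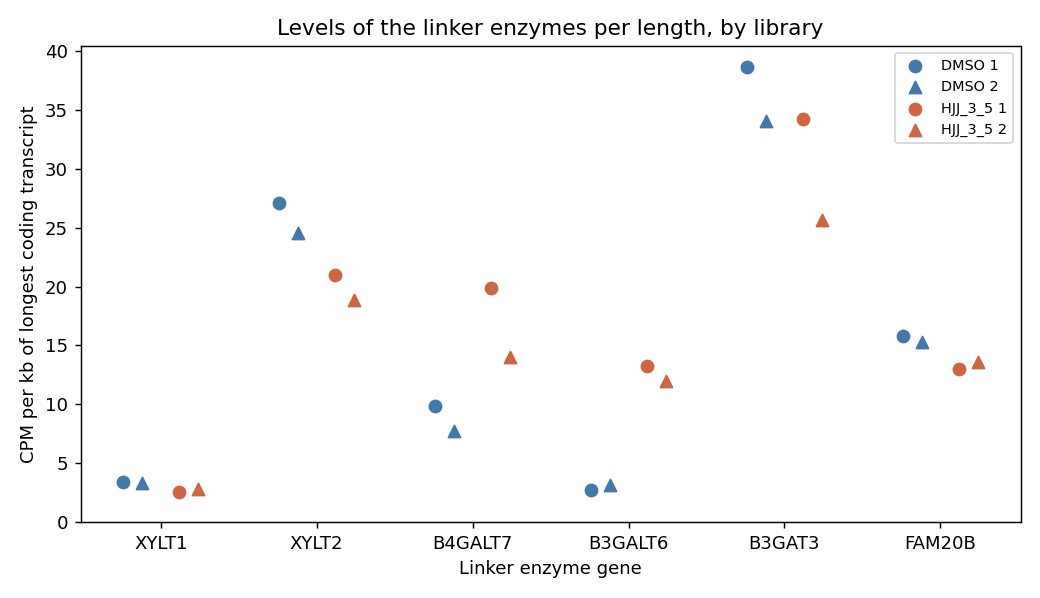
Level of the 6 linker enzyme genes in CPM per kilobase of the longest coding transcript, with 1 point per library (blue: DMSO, orange: HJJ_3_5). B3GALT6 went from a mean of 2.97 to 12.6, while XYLT2 and B3GAT3, the highest with DMSO, had means of 19.9 and 29.9 with HJJ_3_5.

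Among the 10 heparan sulfate enzymes, 2 sulfotransferases were called higher and 0 genes lower. Over all tested genes 17.4% were called in either direction, and whether this role differs from that share was not tested. HS3ST1, which adds the rare sulfate that completes the antithrombin-binding site, stood at 80.1 and 74.5 CPM with DMSO and 121 and 121 CPM with HJJ_3_5 (0.65 ± 0.10). The libraries of each group were close to each other, and the groups did not overlap. NDST2, an N-deacetylase and N-sulfotransferase that starts chain modification, stood at 14.1 and 12.2 CPM with DMSO and 21.0 and 21.6 CPM with HJJ_3_5 (0.70 ± 0.14). NDST2 shares 3857 of its 4654 exon bases with a second annotated gene on its strand, ENSG00000272916, whose level was 11.5 and 15.9 CPM with DMSO and 10.9 and 8.76 CPM with HJJ_3_5. How reads were divided between these 2 rows is not known, so the level of NDST2 is uncertain. Its relative NDST1 stood at 66.5 and 58.1 CPM with DMSO and 87.3 and 85.6 CPM with HJJ_3_5 and was not called (0.47 ± 0.12).

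None of the chain-building genes of heparan sulfate was called. EXTL3, which commits a linker to heparan sulfate, stood at 202 and 141 CPM with DMSO and 143 and 149 CPM with HJJ_3_5, so the groups overlapped (-0.23 ± 0.19). The copolymerase subunits EXT1 and EXT2 had log2 fold changes of -0.09 ± 0.12 and -0.35 ± 0.11, and EXTL2 of -0.06 ± 0.21. GLCE, the epimerase that turns glucuronic into iduronic acid, was lower in both HJJ_3_5 libraries, at 34.9 and 54.5 CPM against 70.3 and 84.8 CPM, with a log2 fold change of -0.79 ± 0.25 and a 1.56-fold gap between the HJJ_3_5 libraries, and GLCE was not called either. The uronyl and glucosamine sulfotransferases HS2ST1 and HS6ST1 had log2 fold changes of 0.10 ± 0.10 and 0.18 ± 0.10. Summed over the 10 genes, the levels were 844 and 787 CPM with DMSO and 811 and 823 CPM with HJJ_3_5, which overlap.

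The 11 chondroitin and dermatan sulfate enzymes held changes in both directions. CHST15, which adds a further sulfate to already sulfated N-acetylgalactosamine and so makes the highly charged chondroitin sulfate E, fell. It stood at 123 and 133 CPM with DMSO and 42.1 and 48.0 CPM with HJJ_3_5, with means of 128 ± 7 and 45.0 ± 4.1 CPM (SD, n = 2). The groups did not overlap and the log2 fold change was -1.50 ± 0.12, a 2.84-fold decrease. CHST15 lies on chromosome 10, 124007666 to 124093607. CHST12, which sulfates N-acetylgalactosamine of chondroitin and dermatan chains, rose from 32.0 and 26.8 CPM with DMSO to 49.7 and 44.3 CPM with HJJ_3_5 (0.67 ± 0.15). CHPF2, a partner of the chondroitin polymerase, rose from 17.4 and 21.3 CPM to 43.4 and 37.8 CPM (1.07 ± 0.16), and both HJJ_3_5 libraries were above both DMSO libraries. CHPF2 shares 64 of its 4205 exon bases with SMARCD3 on the other strand, which was not called (-0.09).

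CHPF, the related polymerizing factor, was not called. Its level was 632 and 554 CPM with DMSO and 694 and 601 CPM with HJJ_3_5, with overlapping groups (0.13 ± 0.12). Per kilobase, CHPF stood at 197 CPM with DMSO and 215 CPM with HJJ_3_5, and CHPF2 at 4.87 and 10.2 CPM. The polymerase CHSY1 overlapped between the groups, with a log2 fold change of 0.02 ± 0.10. CSGALNACT2, which starts chondroitin chains, had -0.18 ± 0.12, and the uronyl sulfotransferase UST had 0.16 ± 0.14. CHST3, a sulfotransferase that acts on another position of the sugar than CHST11 and CHST12, was higher in both HJJ_3_5 libraries (0.44 ± 0.12) and the dermatan epimerase DSE lower in both (-0.55 ± 0.13), and neither was called. Summed over the 11 genes the levels were 1095 and 1013 CPM with DMSO and 1095 and 1022 CPM with HJJ_3_5.

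For 2 sulfotransferases of this role no direction can be read, because libraries of the same group differed more than the groups. CHST11, a chondroitin sulfotransferase, stood at 32.2 and 8.11 CPM in the DMSO libraries, a 3.97-fold gap, and at 21.7 and 21.6 CPM with HJJ_3_5. CHST14, which sulfates dermatan chains, stood at 12.9 and 15.6 CPM with DMSO and at 4.49 and 25.8 CPM with HJJ_3_5, a 5.74-fold gap. Without HJJ_3_5 library 1 the log2 fold change of CHST14 was 0.86, and without HJJ_3_5 library 2 it was -1.67. For CHST11 it was 1.41 without DMSO library 1 and -0.58 without DMSO library 2. HAS2, at 4 and 7 counts with DMSO, had a 1.87-fold gap there and was left aside here. Gaps above 1.5-fold within a group also occurred for SDC1, GPC1, HYAL2 and GLCE, none of which was called. The log2 fold change of SDC1 was 0.65 without DMSO library 1 and -0.19 without DMSO library 2, and that of GPC1 was -0.65 and 0.08. HYAL2 stood at -0.58 without HJJ_3_5 library 1 and 0.21 without HJJ_3_5 library 2, and GLCE kept its sign, at -0.51 and -1.15. These 6 genes were singled out after their values were seen.

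Neither sugar nucleotide enzyme was called. UGDH, which oxidizes UDP-glucose to the UDP-glucuronic acid that both hyaluronan and sulfated chains consume, stood at 59.8 and 64.0 CPM with DMSO and 51.3 and 63.0 CPM with HJJ_3_5. UXS1, which turns UDP-glucuronic acid into the UDP-xylose of the linker, stood at 79.0 and 81.8 CPM with DMSO and 76.3 and 82.5 CPM with HJJ_3_5. Both genes overlapped between the groups and had log2 fold changes of -0.12 ± 0.14 and -0.02 ± 0.10.

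Among the core proteins, SDC4 fell and the others were not called. SDC4, a transmembrane heparan sulfate proteoglycan of focal adhesions, had the highest level per kilobase of all members with DMSO, at 267 CPM (176 with HJJ_3_5). It stood at 746 and 651 CPM with DMSO and 495 and 422 CPM with HJJ_3_5 (-0.61 ± 0.13). Both HJJ_3_5 libraries were below both DMSO libraries, with means of 698 ± 68 and 459 ± 52 CPM (SD, n = 2). SDC1, the main syndecan of simple epithelia, overlapped between the groups at 47.5 and 26.6 CPM with DMSO and 44.8 and 38.96 CPM with HJJ_3_5. The membrane-anchored glypicans GPC1 and GPC4 had log2 fold changes of -0.33 ± 0.26 and -0.05 ± 0.11. SDC2 had 0 counts in all 4 libraries, where 3 counts, the limit that a count of 0 allows, correspond to 0.0766 to 0.109 CPM per library, for counting error only. Summed over the 5 core proteins the levels were 970.2 and 937 CPM with DMSO and 729 and 637 CPM with HJJ_3_5, most of it SDC4.

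Of the genes of hyaluronan degradation none was called, by a small margin for CEMIP. CEMIP, which binds hyaluronan and is needed for its breakdown outside the lysosome in several cell types, stood at 7.53 and 8.22 CPM with DMSO and 12.02 and 14.9 CPM with HJJ_3_5. Both HJJ_3_5 libraries were above both DMSO libraries, and the log2 fold change was 0.78 ± 0.18 with an adjusted p of 0.0507 (edgeR). CEMIP was called higher in 7 of the 9 alternative fits that keep all libraries, so its status depends on the setting. CEMIP shares 224 of its 7621 exon bases with MESD on the other strand, which was called higher (0.57). HYAL3, a hyaluronidase family gene, was higher in both HJJ_3_5 libraries at a low level (3.77 and 4.20 against 5.46 and 7.89 CPM, 0.75 ± 0.25). HYAL3 shares 248 of its 2030 exon bases with NAA80 and 43 with IFRD2, both on its strand. How reads were divided between these rows is not known. HYAL2, the hyaluronidase anchored at the cell surface, overlapped at 64.0 and 62.0 CPM with DMSO and 73.1 and 42.1 CPM with HJJ_3_5. DSE, NDST1 and B4GALT7 also missed the threshold narrowly, with edgeR adjusted p of 0.0562, 0.0563 and 0.0567.

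**Figure D4:**
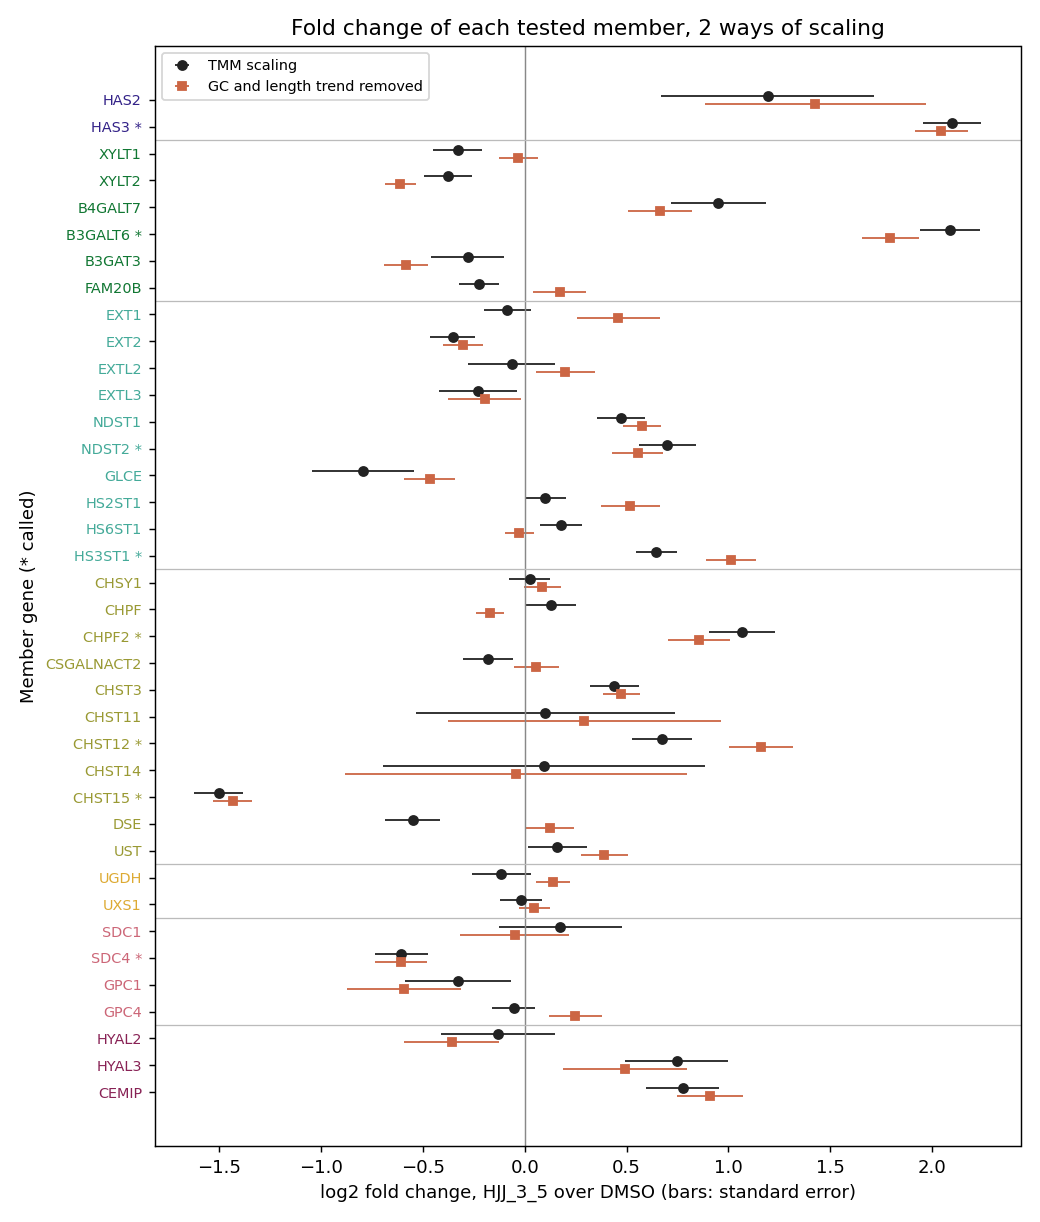
Log2 fold change of each tested member, HJJ_3_5 over DMSO, with standard errors, under TMM scaling (black) and with a per-library trend in transcript GC content and length removed (orange). Stars mark the 8 called members, all of which keep their direction in both, while 12 members that were not called change sign, EXT1 and DSE by the widest margins.

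Fold changes in these libraries followed the GC content of transcripts, and the members were also read with that trend removed. Across all 14018 tested genes with a known transcript, Spearman's rho of the log2 fold change with GC content was 0.35, and across the 38 members 0.25. Libraries of the same group differed along GC content as well, where the rho of library 2 minus library 1 was -0.37 for DMSO and -0.55 for HJJ_3_5 over all genes, and -0.21 and -0.54 over the members. Genes of a library share its depth and composition and are not independent. With the trend removed, all 8 called members were still called in the same direction, HAS3 at 2.05, B3GALT6 at 1.80, HS3ST1 at 1.01, CHST12 at 1.16, CHPF2 at 0.86, NDST2 at 0.56, SDC4 at -0.61 and CHST15 at -1.43. In that fit 4 more members were called higher (B4GALT7, NDST1, CHST3 and CEMIP) and 2 lower (XYLT2 and B3GAT3). Calls also rose over all 14180 tested genes, from 2473 to 3567. The log2 fold change turned sign for 12 members, none of them called in either fit, among them DSE from -0.55 to 0.13, EXT1 from -0.09 to 0.46 and FAM20B from -0.22 to 0.17.

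**Figure D5:**
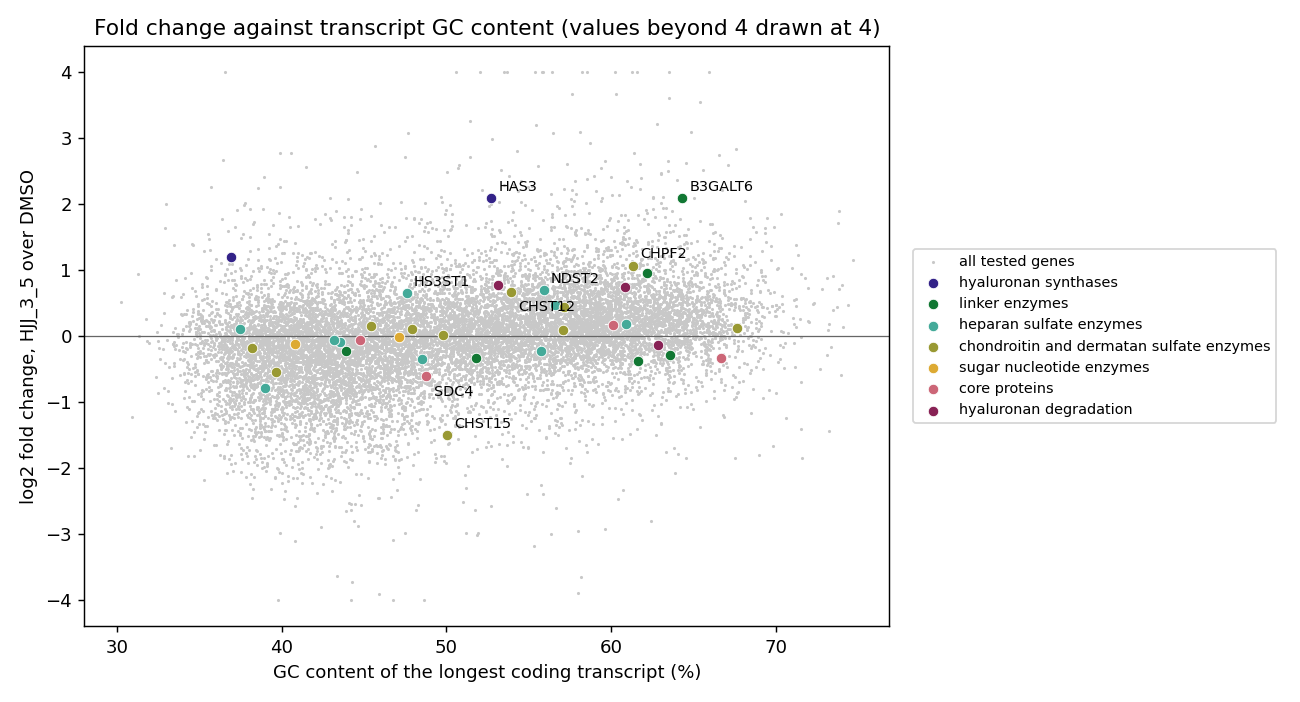
Log2 fold change, HJJ_3_5 over DMSO, against the GC content of the longest coding transcript for all tested genes (grey) and the members (coloured by role), with the called members named and values beyond 4 drawn at 4. HAS3, at a GC content of 52.7%, and CHST15, at 50.1%, lie away from the bulk of genes of like GC content, and B3GALT6 is among the GC-rich transcripts at 64.3%.

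The calls depended on which libraries were kept. Without DMSO library 1, 1 member was called (HAS3), without DMSO library 2 or HJJ_3_5 library 1 none, and without HJJ_3_5 library 2 there were 8, of which 5 were among the 8 of the full fit. Such a fit leaves 1 library in a group and 1 residual degree of freedom, and over all genes it called 52, 4, 0 and 2692. With all libraries, 18 of the 38 tested members and 5578 of all 14180 tested genes had an unadjusted p below 0.05 (edgeR). The sizes moved less than the calls when a library was left out. The log2 fold change then lay between 1.96 and 2.24 for HAS3, 1.99 and 2.19 for B3GALT6, 0.93 and 1.22 for CHPF2, 0.59 and 0.70 for HS3ST1, and -1.61 and -1.41 for CHST15. It lay between 0.60 and 0.81 for NDST2, 0.55 and 0.80 for CHST12 and -0.73 and -0.50 for SDC4.

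The rest of the pathway was read from 103 genes taken by textbook role, of which 77 were tested. Of these, 6 were higher and 4 lower, or 13.0% against 17.4% over all genes, with a median log2 fold change of 0.00085. Among the enzymes that write or erase sulfates, CHST2, a sulfotransferase of N-acetylglucosamine, rose from 4.58 and 5.03 CPM to 11.5 and 9.503 CPM (1.12 ± 0.19, adjusted p = 0.0324). CHST13, a chondroitin sulfotransferase, rose at a low level from 0.950 and 0.942 CPM to 2.88 and 2.38 CPM (1.47 ± 0.26, adjusted p = 0.0348). SULF2, which removes sulfates from heparan sulfate outside the cell, rose from 19.6 and 23.5 CPM to 37.9 and 32.6 CPM (0.71 ± 0.16, adjusted p = 0.0478). Both HJJ_3_5 libraries were above both DMSO libraries for all 3. The lysosomal sulfatase ARSG rose from 21.6 and 22.9 CPM to 52.6 and 54.3 CPM (1.26 ± 0.12, adjusted p = 0.0253). It shares 144 exon bases with SLC16A6 and 828 with WIPI1 on the other strand, and SLC16A6 was called higher (2.77). Without knowing whether counting used strand, reads of overlapping genes cannot be told apart. IDS, another lysosomal sulfatase, fell from 157 and 151 CPM to 109 and 103 CPM (-0.54 ± 0.09, adjusted p = 0.0348), a call that was lost with the GC trend removed, where its log2 fold change was -0.02, and with library totals (-0.35).

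Precursor supply and core proteins outside the members held the remaining calls. PGM3, which makes the N-acetylglucosamine phosphate that becomes UDP-N-acetylglucosamine, fell from 71.2 and 58.0 CPM with DMSO to 16.7 and 27.4 CPM with HJJ_3_5 (-1.55 ± 0.28, adjusted p = 0.036). It shares 1087 of its 7335 exon bases with DOP1A on the other strand, which was not called (-1.52). The other listed genes of this route, named after their values were seen, were not called and did not share a direction. UAP1 and GFPT1 were lower in both HJJ_3_5 libraries (-0.96 and -0.48, edgeR adjusted p = 0.0546 and 0.0595). With the GC trend removed, UAP1 was called lower (-0.81) and GFPT1 stood at 0.05. GNPNAT1 was higher in both (0.23 ± 0.10), and GFPT2 overlapped between the groups (-0.04 ± 0.10). TMEM165, a Golgi ion transporter needed for glycosylation, rose from 35.5 and 35.5 CPM to 63.9 and 56.2 CPM (0.76 ± 0.12, adjusted p = 0.0317). The basement membrane proteoglycan AGRN fell from 313 and 272 CPM to 196 and 184 CPM (-0.62 ± 0.11, adjusted p = 0.035), a call that was lost with library totals (-0.44). The neural proteoglycan CSPG5 rose from 11.0 and 10.5 CPM to 17.3 and 16.6 CPM (0.65 ± 0.13, adjusted p = 0.0412). The hyaluronan-binding proteoglycan VCAN fell from 49.6 and 96.5 CPM to 22.6 and 21.0 CPM (-1.74 ± 0.34, adjusted p = 0.0396). The DMSO libraries differed widely for VCAN, and with the GC trend removed it was not called (-0.94). None of the 7 tested genes of hyaluronan binding and turnover outside the members was called. Both HJJ_3_5 libraries lay below both DMSO libraries for 6 of them (33.9% of all tested genes), and HYAL1 overlapped. CEMIP2 stood at 37.6 and 47.8 CPM with DMSO and 19.8 and 27.3 CPM with HJJ_3_5 (-0.86 ± 0.22, edgeR adjusted p = 0.0599). HAPLN3 had -0.63 ± 0.16 (edgeR adjusted p = 0.0562). With the GC trend removed HAPLN3 was called lower (-0.92) and CEMIP2 was not called (-0.51). CD44, the main hyaluronan receptor, stood at 660.4 and 695 CPM with DMSO and 599 and 647 CPM with HJJ_3_5 (-0.12 ± 0.09). HMMR, a receptor that also acts at the mitotic spindle, stood at 76.5 and 83.4 against 23.5 and 55.8 CPM (-1.01 ± 0.42).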

How the data were processed

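The counts deposited by the authors are not normalized, as whole numbers with unequal library totals show, with 1 column per library. How reads were aligned and counted, and whether by strand, is not given in the sources. The submitters' processing notes list GRCm38 and mm10, both mouse builds, whereas every one of the 20263 rows has a human Ensembl identifier. Symbols came from a gene name table, and positions, exon overlaps, transcript length and GC content (longest coding transcript) from GENCODE 29 on GRCh38.

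Genes were kept with filterByExpr (minimum count 10, total 15), scaled by TMM and tested with edgeR 4.0.16 in R 4.3.3 (two-sided quasi-likelihood test with no term beside group, 2 residual degrees of freedom, Benjamini-Hochberg adjustment over 14180 genes). The standard error is the log2 fold change divided by the root of the F statistic. The biological coefficient of variation was 0.193. The methods were also run on simulated counts, which held no GC trend and no genes with unusually wide gaps within a group. That run does not cover such features of these libraries. Members and lists were chosen with earlier results of these data known. Values per library are given for called members, HAS2, HAS3, CEMIP and the highest member of each role, and for up to 12 called other pathway genes. Other genes with values were named after these were seen. The 13 alternatives were other scalings and filters, DESeq2 1.42.0, limma-voom 3.58.1, a replicate block, removal of a GC and length trend (natural splines, 4 degrees of freedom) and leaving out each library. A protein sequence table was not used here.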

Additional observations from a re-analysis of the deposited data

How the results depend on the processing

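With all libraries, every alternative scaling, filter and tool kept the 8 called members in their direction and past the threshold, except that SDC4 lost its call with library totals (-0.42). Against 8 members called in the main fit (6 higher, 2 lower), 11 were called with library totals (10 higher, 1 lower) and 14 with DESeq2 (10 higher, 4 lower). The number was 15 with the replicate block, 14 with the GC and length trend removed, and 17 with that and the replicate block. Other pathway genes called were 16 with library totals (14 higher and 2 lower, against 6 and 4, with AGRN and IDS lost), 23 with DESeq2, 23 with the replicate block, 22 with the trend removed and 28 with both, against 10. Over all genes the counts were 4000 with DESeq2, 4617 with the replicate block, 3567 with the trend removed and 4948 with both, against 2473. Library totals moved all log2 fold changes by about 0.19, gave 2614 genes higher and 818 lower (76.2% higher, against 52.6%), and moved the members' median to 0.24, against 0.06. Leaving out a library gave 0 to 8 members, 0 to 12 other pathway genes and 0 to 2692 genes called, and a members' median of -0.01 to 0.06. Among the members given by library, the sign turned, in genes that were not called, for FAM20B (0.17 with the trend removed, with or without the block), CHPF (-0.17 in the same fits), UXS1 (0.17 with library totals, 0.05 with the trend removed in both fits, -0.08 to 0.03 when a library was left out, with 0.00 without DMSO 2), HYAL2 (0.05 with library totals, -0.58 to 0.21 when a library was left out) and EXTL3 (-0.47 to 0.05 when a library was left out). Other members that were not called also turned: with library totals EXT1 (0.10), EXTL2 (0.12), CSGALNACT2 (0.0061), UGDH (0.07) and GPC4 (0.13). With the trend removed 12 members turned in all. Of the members singled out above for gaps within a group, CHST11, CHST14, SDC1, GPC1 and HYAL2 turned when a library was left out. Fits without a library were not read in this way for every other member. The cause of these changes was not tested. The replicate numbers pair no samples by the labels. Differences of library 2 from library 1 correlated at 0.281 between the groups across genes, with only 2 pairs. Depth was lowest for SDC2, with 0 counts, and HAS2, with 4 to 16 counts a library.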
